A study of Mus musculus with 4 samples.

Results

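The cells described here are CD8 T cells of 1 transcriptional cluster of an IL-12 treated mouse mammary tumour sample, divided by whether a transcript of Ifng, the interferon-gamma gene, was captured in them. Of the 17211 cells of the series, 12979 came from the IL-12 library, 3264 of these carried the authors' class of CD8 T cells, and 2488 of those lay in the authors' cluster 5. Within cluster 5, 1130 cells held at least 1 Ifng molecule, counted as a unique molecular identifier (UMI), and are called Ifng-positive, and 1358 held 0 and are called Ifng-negative. The groups were chosen by the Ifng reading itself, so every difference between them is given as a description, and Ifng was left out of all gene ranks. A positive cell was compared with a negative cell of nearly the same total UMIs, since a deeper cell is more likely to show any transcript.

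Control plasmid or IL-12 plasmid was injected into the tumours and electroporation followed, which opens cell membranes to DNA with short electric pulses, and live CD45+ cells (leukocytes) were sorted. Each treatment is a pool of 3 mice with 1 expression library, read from the 5′ ends of transcripts, and 1 library of T cell receptors, so no value has a replicate, no test was made, and mice within a pool cannot be told apart. The labels describe the tumour model in different ways: the growth notes give mice whose mammary tissue expressed HER2 from an induction at 1 month of age, with tumours arising spontaneously, the series text calls the tumours TNBC (triple-negative breast cancer), and the library names carry 4T1, the name of a transplantable mouse mammary carcinoma line. The labels give no strain, sex or age at treatment. In the deposited tables the control cells are marked Isotype and the treated cells IL-12 (TAVO).

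Interferon-gamma is the main cytokine by which CD8 T cells and NK cells act on macrophages, tumour cells and antigen presentation. Its transcript is made in bursts after T cell receptor signals or after IL-12 together with IL-18, through NFAT, AP-1, STAT4 and the T-box factors T-bet and Eomes, and its decay is controlled through its 3′ end. CD8 T cells that have met antigen often hold the chemokine transcripts Ccl3, Ccl4 and Ccl5 and the cytotoxic proteins perforin and granzymes, whereas naive and stem-like T cells are marked by Tcf7 and Ccr7.

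Promoter sequences are shown for the gene that divides the cells, for the gene that ranked highest in the positive cells, and for perforin, the killing protein of the group. Each is the 250 bases before the transcription start, from RefSeq on GRCm38.p6, written 5′ to 3′ along the gene's strand. Capitals mark matches on either strand to 4 short motifs: the NFAT core GGAAA, the AP-1 site TGANTCA, a T-box site AGGTGT and the STAT site TTCNNNGAA.
Ifng (chr10:118440796-118441045, plus strand): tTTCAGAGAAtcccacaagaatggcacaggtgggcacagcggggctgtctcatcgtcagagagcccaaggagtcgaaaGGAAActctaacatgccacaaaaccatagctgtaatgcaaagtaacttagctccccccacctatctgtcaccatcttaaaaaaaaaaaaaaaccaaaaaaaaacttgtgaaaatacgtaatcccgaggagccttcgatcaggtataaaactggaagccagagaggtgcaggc
Ccl3 (chr11:83649379-83649628, minus strand): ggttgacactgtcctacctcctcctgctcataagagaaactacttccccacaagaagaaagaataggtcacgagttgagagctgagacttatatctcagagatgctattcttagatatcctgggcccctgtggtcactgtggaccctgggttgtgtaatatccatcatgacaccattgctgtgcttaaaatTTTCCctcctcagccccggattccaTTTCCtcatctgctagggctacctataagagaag
Prf1 (chr10:61297586-61297835, plus strand): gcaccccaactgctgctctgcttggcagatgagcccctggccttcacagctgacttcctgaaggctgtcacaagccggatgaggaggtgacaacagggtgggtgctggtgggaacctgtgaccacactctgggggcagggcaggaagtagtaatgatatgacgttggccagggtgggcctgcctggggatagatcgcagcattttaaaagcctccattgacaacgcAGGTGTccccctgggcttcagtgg
The Ifng stretch held 1 NFAT core and 1 STAT match, the Ccl3 stretch held 2 NFAT cores, and the Prf1 stretch held 1 T-box match. Over the full windows of 300 bases, which run 50 bases past the start, these counts were the same and no AP-1 match was found. Such matches are common by letters alone: of 32851 mouse promoter windows of that length, 61.3% held the NFAT core, 7.81% the AP-1 site, 13.7% the T-box site and 8.30% the STAT site, and some matches of different motifs can overlap. A match is a description of these letters only.

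The class name was checked first. In cluster 5, Cd3e, part of the T cell receptor complex, had a UMI in 96.2% of cells, and the CD8 chains Cd8a and Cd8b1 in 90.7% and 90.3%; in neutrophils of the same library, which should lack them, the Cd8a share was 4.94%. Cd4 was seen in 5.18% and the regulatory T cell factor Foxp3 in 2.17% of cluster 5 cells. A small group of 60 cells held no UMI of Cd3d, Cd3e or Cd3g, and 60% of these held Ncr1, a receptor of NK cells, against 0.741% of the other 2428 cells; none of the 60 had a recorded clone, and 17 were Ifng-positive. The libraries shared 87 cell barcodes, 11 of them borne by cluster 5 cells, 4 of which were Ifng-positive. S100a8, an abundant neutrophil transcript that T cells should lack, had a UMI in 44.6% of cluster 5 cells and in 97.1% of neutrophils.

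Among cluster 5 cells, 45.4% (exact binomial 95% interval 43.4 to 47.4) were Ifng-positive, at a median of 6117.5 UMIs per cell. The share in B cells, which should lack the transcript, was 1.89% (0.615 to 4.35) at a median of 6323 UMIs, and in neutrophils 1.51% (1.21 to 1.85) at a median of 2553. In macrophages, with a median of 7211 UMIs, it was 6.05% (4.97 to 7.29). Of these classes, B cells lay nearest to cluster 5 in depth and neutrophils furthest. All 3 shares were well below that of cluster 5. Thinned to 3000 UMIs per cell, with 9 cells of cluster 5 left out as too shallow, 31.3% of its cells remained positive, against 1.13% of neutrophils, 0.485% of B cells and 2.66% of macrophages. The share in cluster 5 was lowest in the shallowest and highest in the deepest cells: in 5 equal groups by total UMIs, from the shallowest to the deepest, it was 37.1%, 43.8%, 43.6%, 47.7% and 54.9%. The intervals cover counting error only, as do all others below.

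Most positive cells held very few Ifng molecules and a few held very many. Of the 1130 positive cells, 482 held 1 UMI, 426 held 2 to 4, 193 held 5 to 19 and 29 held 20 or more; the median positive cell held 2. The 482 cells with 1 UMI supplied 8.79% of the 5485 Ifng UMIs of the cluster, while the 29 cells with at least 20 supplied 42.5% and the 7 with at least 100 supplied 26.5%. The line between the groups thus runs between cells with 1 molecule and cells with 0, and many cells stand next to it. The mean over all cluster 5 cells was 2.20 UMIs with an SD over cells of 13.3, or 325.6 counts per 1000000 UMIs (CPM); without the 10 highest cells the level was 224.2 CPM.

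**Figure D1:**
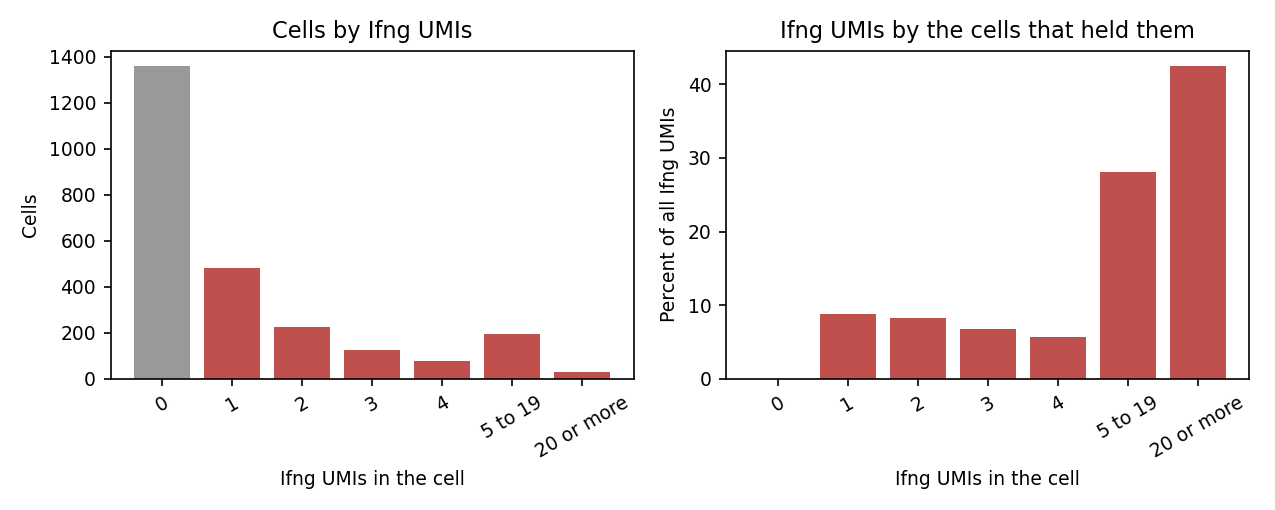
Left, number of cluster 5 CD8 T cells of the IL-12 library by the Ifng UMIs they held (grey, 0; red, positive); right, percent of the 5485 Ifng UMIs held by the cells of each class. The 482 cells with 1 UMI are the largest positive class and hold 8.79% of the UMIs, while the 29 cells with 20 or more hold 42.5%.

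The highest single cells differed in kind. The cell with the most Ifng held 468 UMIs, 4.35% of all its UMIs, with 13 UMIs of Ncr1 and 0 of Cd8a, Cd3d, Cd3e and Cd3g, so by these genes it did not have the profile of a T cell. The seventh cell, with 101 Ifng UMIs, likewise held 0 of Cd8a and the Cd3 genes, 3 of Ncr1 and 138 of Ccl4. The other 8 of the 10 highest cells all held Cd3e and Cd8a. The 60 cells without Cd3 UMIs supplied 10.8% of the Ifng UMIs of the cluster. Among the T cells, the pair ranked next, with 222 and 209 Ifng UMIs, held 0 UMIs of Ccl3, Ccl4, Gzmb and Prf1, whereas another, with 78, held 251 of Gzmb and 77 of Prf1. Very high Ifng was therefore seen in cells with and without the other effector transcripts.

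Depth matching paired 1110 positive with 1110 negative cells, with median total UMIs of 6350.5 and 6345, against 6430.5 and 5871 before pairing; 20 positive and 248 negative cells had no partner within 5%. The paired groups were alike in genes per cell (medians 1617.5 and 1598) and in mitochondrial share of all UMIs (1.27% and 1.28%). Of 6440 measured genes, those with at least 50 UMIs over the pairs and a UMI in at least 5% of either group, 5720 (88.8%) lay within 1.25-fold, and the median log2 ratio was 0.00. At the 1.5-fold mark used throughout (log2 of CPM plus 1), 70 genes (1.09%) were higher and 71 (1.1%) lower in the positive cells, and scaling to the UMIs of the deposited genes alone moved this split to 59 higher and 97 lower, with a median of -0.04. At 2-fold, 11 genes were higher and 17 lower. The 2 groups were thus alike over most of the transcriptome and apart in a small number of genes, which are described by role.

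Released cytokines and chemokines stood highest. Of 8 measured members of that list, 4 were at least 1.5-fold higher in the positive cells and 0 lower, with a median log2 ratio of 0.63. Ccl3, an inflammatory chemokine, was seen in 35.2% of positive and 22.0% of negative cells, at 190.0 and 56.9 CPM, a 3.34-fold difference (3.00 to 3.73); it was higher in the positive cell of 338 pairs and in the negative cell of 177. Ccl4, also a chemokine and its neighbour on chromosome 11, was seen in 45.7% and 31.3% of cells, 2.39-fold (2.23 to 2.56), with 418 pairs against 230. Spp1, the secreted matrix protein osteopontin, was seen in 75.8% and 65.3% (1.93-fold, 1.87 to 1.99), and Ccl9, also a chemokine, in 6.31% and 4.32% (2.29-fold, 1.87 to 2.83). The other 4 lay within 1.5-fold: Ltb, a lymphotoxin chain, and Ccl5, abundant in effector T cells, had log2 ratios of 0.29 and 0.31, Tnf, another cytokine released after receptor signals, 0.28, and the XCR1 ligand Xcl1, seen in 5.05% and 9.37% of cells, -0.55. Il2 had 3 UMIs in each group and was not measured, and Il3 and Il21 were not analysed here.

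Transcripts of Ccl3, Ccl4 and Spp1 were also abundant in other cells of the tumour. In IL-12 neutrophils Ccl3 stood at 6833 CPM with a UMI in 82.0% of cells, and Ccl4 at 8405 CPM, against 128.7 and 279.4 CPM over all of cluster 5. Spp1 stood at 4145 CPM in IL-12 neutrophils and 1512 CPM in IL-12 macrophages, against 1185 CPM over all of cluster 5. The part of RNA from these cells in the Spp1 difference was not tested. The 6 neutrophil markers summed to 353.4 CPM in positive and 326.7 CPM in negative cells, with S100a8 in 45.5% and 44.5% of cells, so the paired groups were close in neutrophil RNA. Among the 356 pairs that remained without cells holding myeloid or B cell marker UMIs, the log2 ratio of Ccl3 was 1.13 and that of Ccl4 0.70, against 1.72 and 1.25 over all pairs. Prf1, which neutrophils hold at 8.95 CPM, was 1.20 in those pairs.

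Cytotoxic effectors came next, with 5 of 17 measured members at least 1.5-fold higher, 0 lower and a median of 0.27. Prf1, the pore-forming perforin, was seen in 67.8% of positive and 45.0% of negative cells at 440.9 and 233.3 CPM, a 1.89-fold difference (1.78 to 2.0), and was higher in the positive cell of 586 pairs against 264. The other 4 were granzymes, serine proteases that lie beside each other on chromosome 14: Gzme (2.80-fold, 2.51 to 3.13), Gzmf (2.34-fold, 2.22 to 2.47), Gzmd (2.12-fold, 1.91 to 2.36) and Gzmc (1.71-fold, 1.56 to 1.87). They rested on few cells: Gzme was seen in 8.56% of positive and 4.95% of negative cells, and Gzmf in 20.5% and 12.5%. Gzme and Gzmd also share 12.6% and 14.6% of their 60-base stretches with another gene, so reads could be divided among these copies and their single values are uncertain. Gzmb, which encodes granzyme B, was present in 78.6% and 67.3% of cells at 1.45-fold (1.41 to 1.48), just inside the mark, and Gzma ran the other way with a log2 ratio of -0.33.

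Inhibitory receptors and exhaustion genes were mostly on the positive side, 9 of 11 measured members above 0 with a median of 0.39, though 1 reached 1.5-fold. That gene was Havcr2, which encodes TIM-3 and was seen in 38.1% of positive and 22.2% of negative cells (1.85-fold, 1.64 to 2.09; 358 pairs against 170). Lag3, an inhibitory receptor for MHC class II, was seen in 92.3% and 80.8% (1.46-fold, 1.40 to 1.52), and Entpd1, which encodes the ectonucleotidase CD39, in 59.1% and 45.9% (1.47-fold, 1.35 to 1.60). Pdcd1, which encodes PD-1, was near level at a log2 ratio of 0.10, as were Ctla4 at -0.00 and Tigit at -0.04. The genes of this list therefore did not move by a common amount.

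Genes switched on soon after receptor signals had 17 of 20 measured members above 0 with a median of 0.13, and 1 reached 1.5-fold; the median was -0.05 in cells with 1 Ifng UMI and 0.59 in those with 5 or more. Nr4a2, an orphan nuclear receptor of this response, was seen in 51.5% of positive and 42.0% of negative cells (1.63-fold, 1.49 to 1.77). Irf4, a factor that scales with receptor signal strength, stood at 0.55, Egr1 at 0.52, Bhlhe40, a factor that sustains cytokine production, at 0.35, and Nr4a1 at 0.34. By detection Nr4a1 did not differ that way, with UMIs in 8.02% of positive and 8.47% of negative cells and 76 pairs against 80. Receptor complex and proximal signalling genes were also on the positive side, 14 of 17 above 0 with a median of 0.14 and 0 past 1.5-fold: Cd8b1 stood at 0.35, Cd8a at 0.33, Cd3g at 0.27 and the signalling chain Cd247 at 0.25. Summed over the 6 CD8 T cell markers the positive cells held 6887 and the negative 5700 CPM, and the part of this difference in the other results was not tested.

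Costimulatory receptors had 0 of 14 members higher and 1 lower. The lower gene was Tnfrsf4, which encodes OX40, at -0.74; Slamf7 and Cd226, both activating receptors, stood at 0.46 and 0.45.

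Over all pairs, the known regulators of Ifng itself differed little. Of 17 measured members of the list of Ifng regulators and IL-12 signalling, 0 were past 1.5-fold in either direction, with a median of 0.05. The median was -0.15 in cells with 1 Ifng UMI, -0.04 with 2 to 4 and 0.30 with 5 or more. With 5 or more, 3 of 15 measured members were at least 1.5-fold higher and 0 lower, beside 4.74% and 4.84% of all genes. Tbx21, which encodes T-bet, was the most different at 0.52, seen in 32.6% of positive and 22.9% of negative cells (1.45-fold, 1.26 to 1.67), and Eomes, its relative, was at 0.05. Stat4, which carries the IL-12 signal, was at -0.29 (30.5% and 35.5% of cells), and the IL-12 receptor chains Il12rb1 and Il12rb2 at 0.27 and -0.23. Regulators of cytokine mRNA decay, 7 measured, had a median of 0.09 with 0 past the mark; Zfp36, Zfp36l1 and Zfp36l2 were not analysed here. Interferon response genes, which report interferon received by a cell, had a median of -0.04 over 19 members with 0 past the mark, the most different being Ifi27l2a at -0.42.

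Over all pairs, naive, stem-like and memory genes were lower in the positive cells, with a median of -0.40. Of 9 measured members, 3 were at least 1.5-fold lower, 0 higher and 1 above 0. The list median was -0.73 in cells with 1 Ifng UMI, -0.89 with 2 to 4 and 0.085 with 5 or more. With 5 or more, 2 of 8 measured members were at least 1.5-fold lower and 0 higher, beside 4.84% and 4.74% of all genes. In that class the list summed to 728.5 CPM in positive cells and 674.9 CPM in their partners. Tcf7, which encodes TCF1 and sustains stem-like T cells, was seen in 3.15% of positive and 7.75% of negative cells, 2.86-fold lower (2.09 to 3.97). Ccr7, which guides T cells to lymph nodes, was seen in 4.95% and 10.5% of cells, 3.05-fold lower (2.6 to 3.59), and Bach2, a repressor of effector genes, in 2.43% and 6.13%, 2.21-fold lower (1.48 to 3.33). All 3 were seen in a small minority of cells, so they separate a fraction of the cluster rather than its bulk. Read the other way, 28.4% (20.9 to 36.8) of the 134 cells with a Tcf7 UMI and 31.6% (25 to 38.7) of the 187 with a Ccr7 UMI were Ifng-positive, although these cells were deeper than the cluster as a whole, with medians of 7060.5 and 7412 UMIs. By level the 2 sets differed, with Ifng at 190.7 CPM in the Tcf7 cells and 473.7 CPM in the Ccr7 cells, beside 325.6 CPM over the cluster. The Ccr7 cells held 13.3% of the Ifng UMIs of the cluster. Of the 1363 cells with a Prf1 UMI, 56.6% (53.9 to 59.2) were positive at a median of 6597 UMIs.

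Homing receptors were mixed, with 2 of 13 lower, 0 higher and a median of -0.00. Besides Ccr7, the lower gene was Cxcr3, the receptor for the interferon-induced chemokines CXCL9 and CXCL10, seen in 5.05% of positive and 10.7% of negative cells (2.07-fold lower, 1.61 to 2.66; 52 pairs against 113). Cxcr4 stood at -0.57 and Cxcr6, which is carried by tissue-resident T cells, at 0.32. Over all pairs, proliferation genes leaned lower, 13 of 16 below 0 with a median of -0.21, and 0 passed the mark. Tyms and Birc5 were lowest at -0.58 and -0.55, and Mki67 stood at -0.21. By class, 6 of 17 measured proliferation genes were at least 1.5-fold lower with 1 Ifng UMI, 0 of 17 with 2 to 4 and 8 of 13 with 5 or more. Their medians were -0.41, -0.10 and -0.68, and 0 were higher in any class. Of all genes, 2.45%, 3.15% and 4.84% were lower in these classes. Glycolysis genes leaned higher, 11 of 12 above 0 with a median of 0.21, led by Eno1 at 0.29. Ribosome biogenesis genes had a median of -0.12 and heat shock and dissociation stress genes 0.05. Over all pairs, 0 measured members of the proliferation, glycolysis, ribosome biogenesis and stress lists were past the mark. The stress genes Hspa1a and Hspa1b were held by too few cells to count as measured. Hspa1a was seen in 3.78% of positive and 1.89% of negative cells, Hspa1b in 4.23% and 2.43%, with log2 ratios of 1.79 and 1.44. In cells with 5 or more Ifng UMIs, 4 of 15 measured stress genes were at least 1.5-fold higher and 0 lower, beside 4.74% and 4.84% of all genes.

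**Figure D2:**
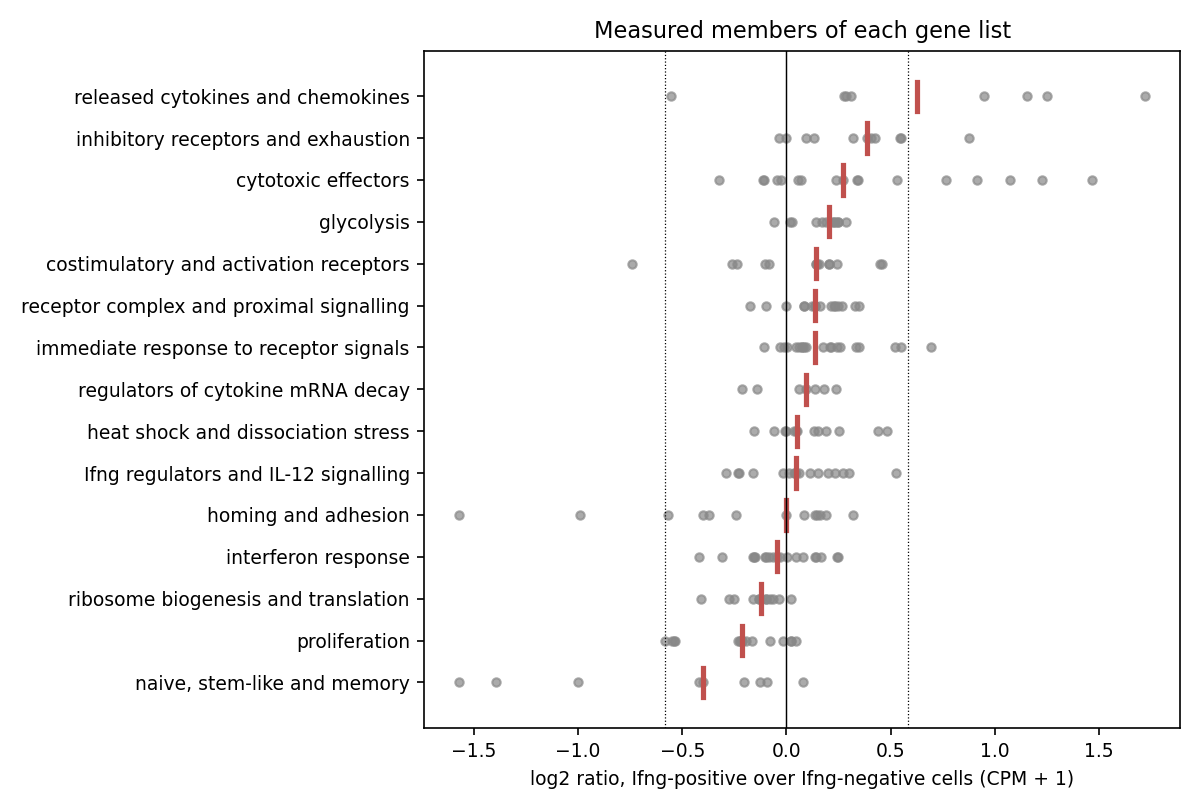
Log2 ratio of positive over negative cells (CPM plus 1) for each measured member (grey points) of 15 gene lists, with the list median as a red bar and dotted lines at 1.5-fold. The medians run from 0.63 for released cytokines and chemokines to -0.40 for naive, stem-like and memory genes, and most members lie between the dotted lines.

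Genes outside these lists filled much of the ranks. Among the 15 highest were Serpine2, a secreted protease inhibitor (18.5% of positive and 9.28% of negative cells, 2.20-fold, 1.94 to 2.49), Cib2, a calcium-binding protein (14.1% and 7.39%, 2.04-fold, 1.61 to 2.61), Filip1, a filamin-binding protein (11.1% and 5.14%, 2.6-fold, 1.97 to 3.47), and the membrane-bound semaphorin Sema7a (6.85% and 3.06%, 2.30-fold, 1.55 to 3.48). Podnl1, Myo16, Lclat1 and Gabrr1 completed the 15 at log2 ratios of 1.07, 1.01, 0.96 and 0.94. Each of these 8 was seen in more positive than negative cells, so none rested on a single cell.

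The lower gene seen in most cells was Emb, which encodes embigin, a partner of monocarboxylate transporters. It was seen in 34.7% of positive and 51.2% of negative cells at 111.9 and 261.6 CPM, 2.34-fold lower (2.16 to 2.53), and was higher in the negative cell of 466 pairs against 234. Krt83, a hair keratin gene, had the lowest log2 ratio, -1.90, with UMIs in 2.52% and 7.66% of cells, and shares 17.0% of its 60-base stretches with another gene. Cd7, a surface protein of T cells, was seen in 13.7% and 20.5% (2.38-fold lower, 2.14 to 2.65). Lrig1, Cd81, Pdlim1, Arl5c, Cables1, Dtx4, Ccr8 and Sdc4 lay between -1.44 and -1.03, each seen in 10.9% of negative cells or fewer. Another 2 of the 15 rested largely on single cells: 1 cell supplied 28.1% of the UMIs of Penk (log2 ratio -1.55) and 1 supplied 26.3% of those of Il1r2 (-1.04), and both genes were seen in nearly equal shares of the groups.

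Some of the lowest genes lost their distance when cells with a Foxp3 or Cd4 UMI were left out. Foxp3, the defining factor of regulatory T cells, was seen in 0.631% of positive and 3.42% of negative cells, and 14.8% (6.62 to 27.1) of the 54 cells with a Foxp3 UMI were Ifng-positive. Cd4 was held by 129 cells, of which 36.4% (28.1 to 45.4) were positive. Without the 153 cells with a UMI of either gene, which were not left out separately, a choice made after seeing the data, Penk stood at -0.48, Cd81 at -0.32, Ccr8 at -0.44, Tnfrsf4 at -0.01 and Il1r2 at 0.24, none of them past 1.5-fold any more. Tcf7 at -1.59, Ccr7 at -1.39, Emb at -1.19 and Cxcr3 at -0.93 stayed past it, as did Ccl3 at 1.77, Prf1 at 0.83 and Havcr2 at 0.91. Summed over the regulatory T cell markers Foxp3, Ikzf2 and Il2ra the positive cells held 204.5 and the negative 260.1 CPM, but Il2ra went the other way, with UMIs in 19.6% of positive and 14.6% of negative cells (1.15-fold higher, 1.02 to 1.30). Over the NK cell markers analysed the sums were 109.9 and 91.4 CPM, and without the cells lacking Cd3 UMIs, also chosen after seeing the data, Ccl3 stood at 1.57, Ccl4 at 1.19 and Prf1 at 0.96.

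**Figure D3:**
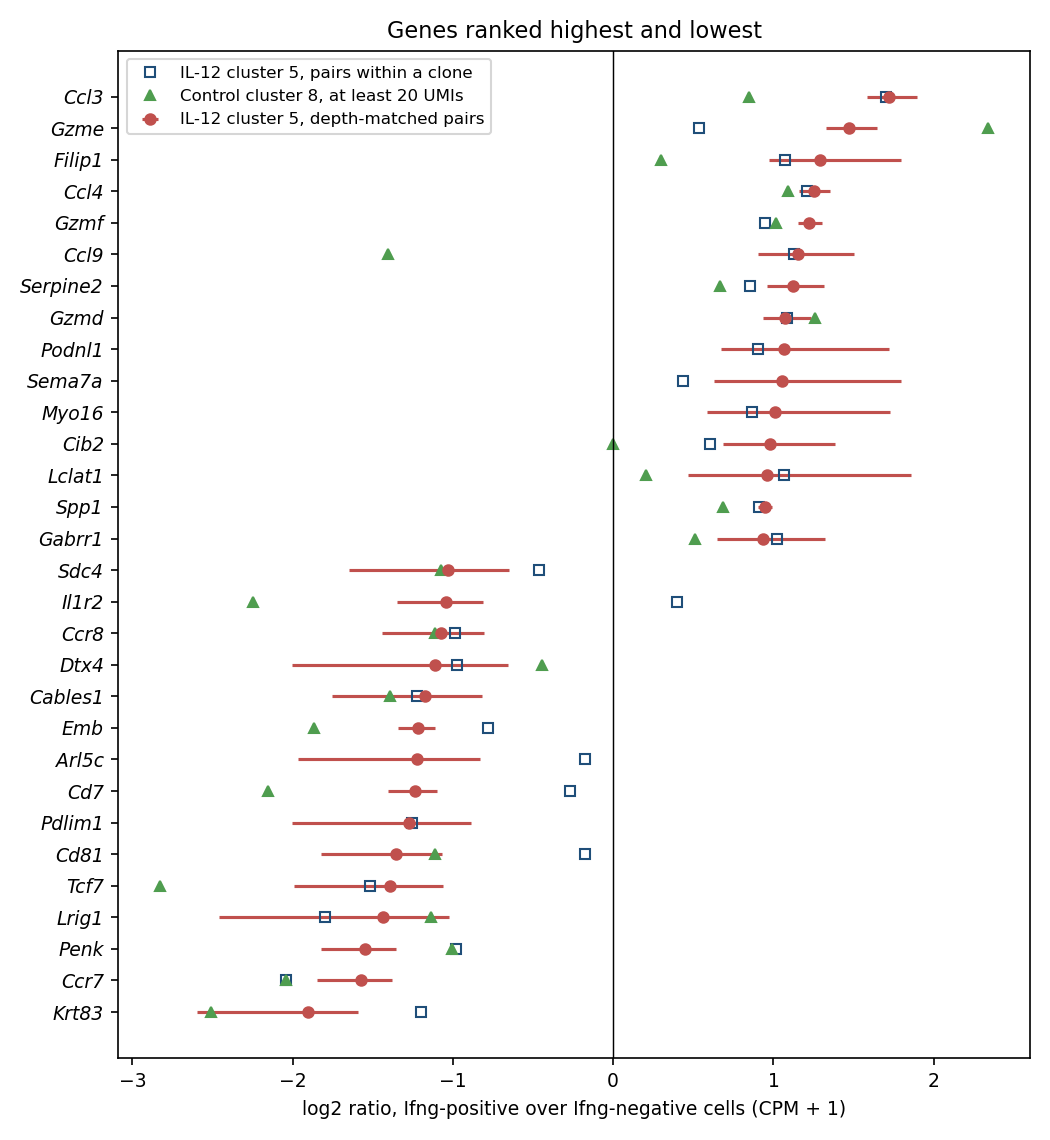
Log2 ratio of Ifng-positive over Ifng-negative cells for the 15 highest and 15 lowest genes: red points, depth-matched pairs of IL-12 cluster 5 with exact 95% Poisson intervals (lines, on the ratio without the pseudocount); open squares, pairs within a clone; green triangles, control cluster 8 where the gene had at least 20 UMIs. Most squares and triangles lie on the same side of 0 as the red point; Il1r2 within clones and, in the control, Ccl9 do not, and Cib2 in the control lies at -0.00.

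The positive cells were also divided by their number of Ifng molecules. Each class was paired on depth with negative cells anew, giving 482 pairs for 1 UMI, 425 for 2 to 4 and 221 for 5 or more. Ccl3 climbed, with log2 ratios of 0.95, 1.35 and 3.71, and was seen in 26.8%, 35.3% and 54.3% of the cells of the 3 classes beside 22.4%, 22.4% and 20.8% of their partners. Ccl4 stood at 0.21, 1.53 and 2.57, and Havcr2 at 0.48, 0.75 and 1.47, with TIM-3 transcripts in 29.7%, 39.8% and 54.8% of cells. Prf1 (0.58, 0.77, 1.08), Lag3 (0.45, 0.67, 0.93) and Nr4a2 (0.49, 0.65, 1.10) climbed by less. The genes switched on soon after receptor signals depended on the class: with 1 UMI 0 of 19 measured members were past 1.5-fold in either direction, with a median of -0.05, beside 1.68% of all genes higher and 2.45% lower. With 2 to 4 UMIs 2 of 19 were higher and 1 lower, with a median of 0.01 (2.84% and 3.15% of all genes), and with 5 or more 10 of 20 were higher and 1 lower, with a median of 0.59 (4.74% and 4.84%). Neutrophil markers summed to 282.5, 429.8 and 396.5 CPM in the 3 classes and to 358.9, 237.8 and 215.5 CPM in their partners; their part in the climb of Ccl3 and Ccl4 was not tested.

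Among the lower genes, Emb already stood at -1.13 in cells with 1 Ifng molecule and reached -1.31 and -1.42 in the others, and Tcf7 stood at -1.31, -1.85 and -1.40. Cxcr3 stood at -0.80, -0.89 and -1.19. For these 3 genes most of the distance from the negative cells was present at the first molecule. Others of the 15 lowest lay further from the negative cells, as Penk did from -1.23 with 1 UMI to -2.90 with 2 to 4 and Cd7 from -0.64 to -1.25. Over all pairs 1 cell supplied 28.1% of the Penk UMIs, and the part of that cell in these values was not tested. Not every higher gene climbed: Serpine2 stood at 1.25, 0.94 and 1.23. The differences between classes were not tested. Of the 15 highest genes, all 15 were above 0 in cells with 1 UMI, 11 of them past 1.5-fold against 1.68% of all genes measured there. Of the 15 lowest, all 15 were below 0 and past 1.5-fold in that class, against 2.45% of genes; the classes share cells with the ranking, so this is no independent support.

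**Figure D4:**
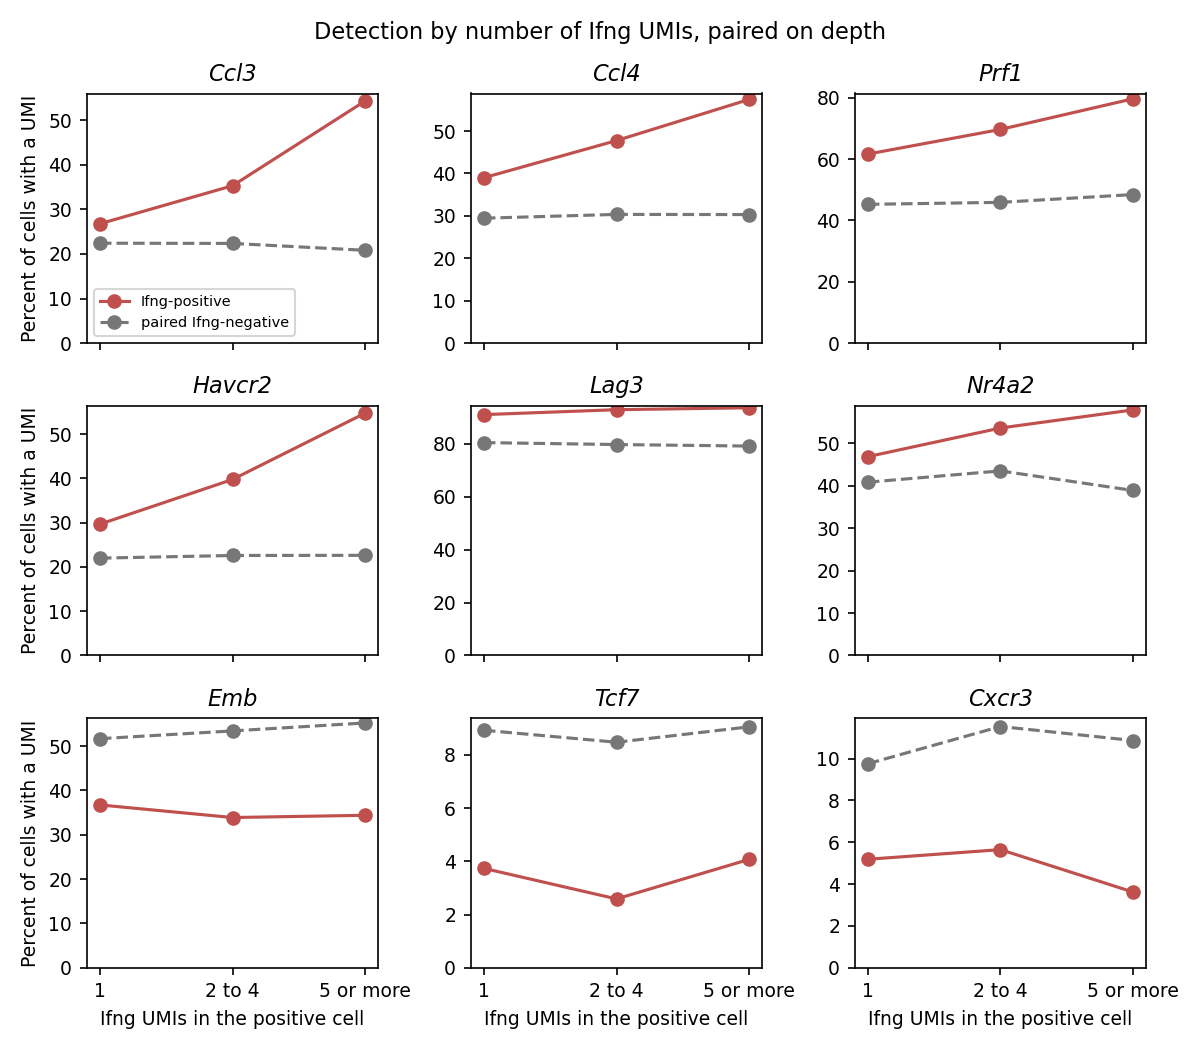
Percent of cells with a UMI of 9 genes, by the Ifng UMIs of the positive cell (red, solid) and in its depth-matched Ifng-negative partners (grey, dashed); vertical axes start at 0 and differ between panels. Ccl3, Ccl4, Prf1 and Havcr2 climb with Ifng UMIs in the positive cells, while Emb, Tcf7 and Cxcr3 are already lower at 1 UMI.

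Cells that took no part in choosing the genes allowed the ranks to be set beside other values. The control library held 572 CD8 T cells of cluster 8, of which 25.3% (21.8 to 29.1) were Ifng-positive at a median of 5556 UMIs, and 17.5% at 3000 UMIs per cell, with a neutrophil share of 0.588% in that library. Its 143 depth-matched pairs are few, and 4.73% of the 4039 genes measured were at least 1.5-fold higher and 4.88% lower. Of the 15 highest genes of cluster 5, 12 had at least 20 UMIs there; 10 were above 0, 7 of them past 1.5-fold, while Ccl9 stood at -1.41 (7 and 20 UMIs) and Cib2 at -0.00. Of the 15 lowest, 13 had enough UMIs; all 13 were below 0, 12 of them past 1.5-fold. The shares over all genes are of genes with at least 50 UMIs, so they stand at a stricter threshold than these counts.

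Prf1, Havcr2, Lag3, Ccl3 and Ccl4 were again higher in the positive cells of the control. Prf1 was seen in 61.5% of positive and 42.7% of negative cells (1.98-fold, 1.69 to 2.32), Havcr2 in 44.1% and 28.0% (1.72-fold, 1.33 to 2.23), Lag3 in 83.9% and 65.7% (1.74-fold, 1.52 to 1.98) and Nr4a2 in 67.1% and 55.2% (2.03-fold, 1.69 to 2.43). Ccl3 (1.81-fold, 1.24 to 2.68) and Ccl4 (2.14-fold, 1.62 to 2.85) were higher as well. Emb was 3.66-fold lower (3.01 to 4.48), with UMIs in 42.0% and 68.5% of cells, and Tcf7 had 6 UMIs in positive and 48 in negative cells. Cxcr3 had 3 and 11 UMIs, too few to place. The cluster differs from cluster 5, so these values show the contrast in other cells and do not compare the treatments. The neutrophil markers summed to 1668 CPM in the control positives and 1266 CPM in the negatives.

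Cluster 12 of the IL-12 library, also called CD8 T cells, held 704 cells of which 40.1% were Ifng-positive. Its 281 pairs carried far more neutrophil RNA, 32379 CPM of the neutrophil markers in positive and 43416 CPM in negative cells. Here Ccl3 and Ccl4 were lower in the positive cells, at -0.34 and -0.48, the reverse of cluster 5. Other effector and inhibitory genes were higher, as in cluster 5: Prf1 stood at 1.66, Havcr2 at 1.37, Gzmf at 1.64, Lag3 at 0.91 and Gzmb at 1.16. Of the 15 highest genes, 13 had at least 20 UMIs there. Among these, 11 were above 0, 8 of them past 1.5-fold, and 2 were below 0. All 15 of the lowest genes were below 0 there, 11 of them past 1.5-fold, with Ccr7 at -1.44 and Emb at -0.95. Over all 5594 genes measured in these pairs, 4.72% were at least 1.5-fold higher and 2.81% lower. Those genes had at least 50 UMIs, a stricter threshold than the 20 used for the ranked genes. Cluster 8 of the IL-12 library and cluster 12 of the control had 21 and 16 positive cells and were not compared.

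T cell receptor clones were recorded for 2239 of the 2488 cells, 92.0% of the positive and 88.3% of the negative cells. They fell into 341 clones, of which 124 contained a positive and 271 a negative cell. Ifng positivity went with clone size. Of the 256 cells that were the only one of their clone in the cluster, 23.8% (18.7 to 29.5) were positive; of the 202 cells in clones of 2 to 9 cells, 39.6% (32.8 to 46.7); of the 246 in clones of 10 to 49, 40.2% (34.1 to 46.7); and of the 1535 in the 6 clones of 50 or more, 52.1% (49.6 to 54.6). The median total UMIs of the 4 classes, in the same order, were 6455.5, 5949, 5560.5 and 6063. At 3000 UMIs per cell the shares were 15.3%, 26.5%, 29.9% and 36.1%. Ifng levels were 96.4, 183.5, 355.3 and 349.0 CPM.

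The large clones each held many cells of both kinds. Clone 1 had 514 cells, 49.8% (45.4 to 54.2) of them positive, clone 2 had 489 with 55.8% (51.3 to 60.3), clone 3 had 207 with 44.4% (37.6 to 51.5), and clone 4 had 193 with 51.8% (44.5 to 59.0). The intervals of all neighbours in the order of these 4 shares overlap at full depth. Clone 1 was deeper than clone 2, with medians of 6949.5 and 5492 UMIs. Thinned to 3000 UMIs per cell, 30.1% (26.1 to 34.3) of clone 1 and 43.6% (39.1 to 48.1) of clone 2 were positive, intervals that do not overlap. Clone 6, with 79 cells, had the highest share at full depth, 68.4% (56.9 to 78.4), at a median of 7237 UMIs. At 3000 UMIs its share was 44.3% (33.1 to 55.9), near that of clone 2. In cluster 12, 12 of the 14 cells of clone 6 were positive. Over the 19 clones of at least 10 cells the full-depth share ran from 15.4% to 68.4% with a median of 44.4%, and the smaller of them have wide intervals. All 30 clones of at least 5 cells held both positive and negative cells, and of the 85 clones of at least 2 cells, 54 held both, 9 positive cells alone and 22 negative cells alone.

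The make-up of the groups differed accordingly. The 4 largest clones supplied 69.3% of the positive and 56.9% of the negative cells with a clone, so a gene that differs between clones could differ between the groups. The level of Ifng was more uneven than the share: clone 5 stood at 1281 CPM because 1 of its 53 cells held 183 of 338 Ifng UMIs, and clone 12 at 2109 CPM because 1 of its 19 cells held 209 of 258. The receptor calls come from a pool of 3 mice, and a clone was not traced to a mouse.

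**Figure D5:**
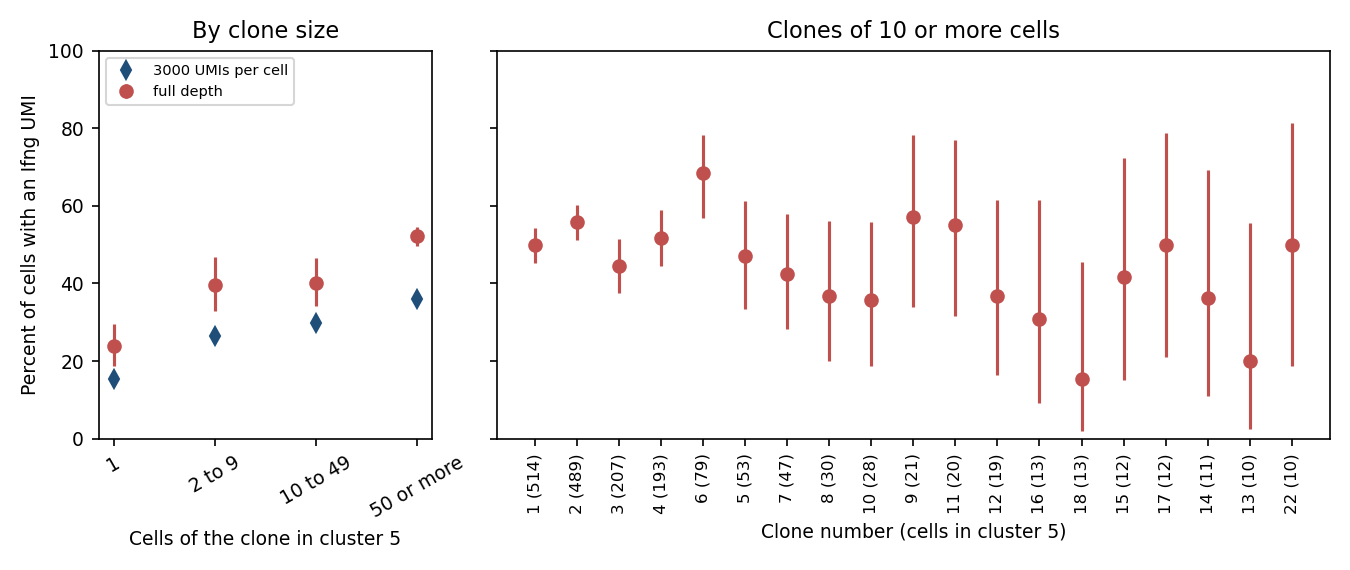
Percent of cluster 5 cells with an Ifng UMI, left by the number of cells of the clone in the cluster (red circles, full depth; blue diamonds, thinned to 3000 UMIs per cell), right for each clone of at least 10 cells, with exact binomial 95% intervals as lines. At full depth the share runs from 23.8% in single cells to 52.1% in clones of 50 or more, and clone 6 is highest at 68.4%.

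Pairs made within a clone hold this make-up equal. In 670 pairs of a positive and a negative cell of the same clone and like depth, Ccl3 stood at 1.70, Ccl4 at 1.21, Prf1 at 0.70, Havcr2 at 0.76, Spp1 at 0.91, Gzmf at 0.95 and Gzmd at 1.08, all past 1.5-fold. Lag3 stood at 0.33 and Nr4a2 at 0.43, and Gzme at 0.54, down from 1.47. Of 6272 genes measured in these pairs, 1.5% were past 1.5-fold higher and 1.36% lower. Of the 70 genes higher over all pairs, 70 were above 0 within clones and 41 past 1.5-fold; the pairs share cells with the ranking, so this is no independent support. Tcf7 at -1.52, Bach2 at -1.36, Cxcr3 at -0.82 and Emb at -0.78 stayed past the mark, as did Ccr7 at -2.04, but in the clones of 50 or more cells alone, chosen after seeing the data, Ccr7 was at -0.40. Cd81, Cd7 and Arl5c, at -0.18, -0.27 and -0.18, were close to level within clones, and Il1r2 stood at 0.40. Of the 71 genes lower over all pairs, 64 were below 0 and 21 past 1.5-fold.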

How the data were processed

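Gene expression was measured in 1 library per treatment with a 5′ kit, per the labels. Cell Ranger 2.1.0, STAR 2.6.1, the mm10 genome and Partek are named in the submitters' processing notes. The authors deposited, for each library, a table of 11407 genes per cell whose values are log2 of CPM plus 1 (CPM, counts per 1000000 UMIs of the cell), with their clusters, classes and clones, and a receptor cell table with a score per cell for several gene sets, with no account of its making in the sources used here. UMIs were recovered by undoing the logarithm with a cell's smallest value above 0 as 1 UMI. All but 6 of 4251108 control and 13 of 13883686 IL-12 values came out whole within 0.1. A cell's total includes genes outside the tables, and the table genes accounted for 72.9% (control) and 70.4% (IL-12) of all UMIs. Cells ran from 655 to 19573 UMIs (median 3021) in the control and from 766 to 19603 (median 3418) in the IL-12 library.

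Each positive cell was paired with the negative cell nearest in total UMIs without Ifng, deepest first, without replacement, within 5%. UMIs were summed per group and scaled to those totals (CPM), and 1 CPM was added to both groups before taking log2 ratios (the pseudocount). Intervals of folds are exact 95% Poisson and of shares exact 95% binomial. They cover counting error only, and treat UMIs as independent, which bursts of many UMIs in 1 cell are not. Cells are not replicates, so no test was made. No doublet caller was run. Named were the 15 measured genes highest and the 15 lowest, leaving out Ifng and genes of receptor segments, immunoglobulins, mitochondria and ribosomal proteins; up to 4 members of each of 15 lists; and a fixed set of effector, regulator and marker genes. Genes described beyond this rule, among them Ltb, Gzmc, Gzma, Ctla4, Tigit, Cxcr6, Mki67, Hspa1a and Hspa1b, and the subsets of cells by Tcf7, Ccr7, Prf1, Foxp3 or Cd3 UMIs were chosen after their values were seen. The cell groups and gene lists were chosen with earlier results of these data known. Alternatives changed the matching, depth, threshold on Ifng, clones, other cells, filter, pseudocount and scaling. On simulated data of 6503 genes with 200 changed by 2-fold, 95.3% of intervals held the true ratio. The simulated counts were Poisson draws from a shared profile for each group, without bursts or clones. This therefore checks the calculation and cannot show how often the intervals hold for real cells. Python 3.11.15, NumPy 2.4.6, SciPy 1.17.1, pandas 2.3.3 and Matplotlib 3.10.9 were used. Promoters were read from RefSeq and shared stretches from GENCODE transcripts.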

Additional observations from a re-analysis of the deposited data

Results flagged for a closer look

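Ccl9 ran in opposite directions in the libraries. In the control cluster 8 pairs its log2 ratio of Ifng-positive over Ifng-negative cells was -1.41, from 7 UMIs in positive and 20 in negative cells, whereas in IL-12 cluster 5 it was 1.15. The difference between the 2 sets of cells was not tested, and with 1 library per treatment it cannot be told apart from differences between the pools. Macrophages held Ccl9 at 277.8 CPM in the IL-12 and 810.4 CPM in the control library, and macrophage markers summed to 306.8 CPM in the positive and 364.1 CPM in the negative control cells; their part in the Ccl9 value was not tested.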

How the results depend on the processing

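The share of Ifng-positive cells rests on depth: it was 16.3% at 1000 and 31.3% at 3000 UMIs per cell, against 45.4% at full depth, and by clone size 15.3%, 26.5%, 29.9% and 36.1% at 3000. The counts of genes past 1.5-fold, 70 higher and 71 lower (1.09% and 1.1% of 6440 measured), moved with the number of genes measured. Pairs thinned to 1000 UMIs gave 38 and 21 (1.75% and 0.968% of 2170). At 3000 UMIs 58 were higher and 42 lower (1.25% and 0.902% of 4655). With at least 2 Ifng UMIs for a positive cell, 156 and 172 were past the mark (2.37% and 2.62%). Without cells holding myeloid or B cell marker UMIs it was 159 and 166 (2.83% and 2.96%). No filter gave 249 and 412 (2.27% and 3.75% of 10993), and a pseudocount of 10 CPM gave 21 and 22 (0.326% and 0.342%). The other alternatives gave counts within 1.5 times, among them 63 and 68 without cells with 20 or more Ifng UMIs, which was chosen after seeing the data. Of the 36 named genes at least 1.5-fold apart, the 16 alternatives gave 576 values, of which 573 had the same sign and 534 stayed past 1.5-fold. These genes include the 15 highest and 15 lowest, and the alternatives share cells with the ranking, so this is no independent support. Of all 70 higher and 71 lower genes, 16 and 6 were still measured and past the mark in pairs thinned to 1000 UMIs. It was 25 and 13 when called at 3000 UMIs, and 30 and 24 without cells holding myeloid or B cell marker UMIs. On the same side of 0 were 68 and 63, 69 and 67, and 69 and 70. Il1r2 reversed, to 0.40 within clones, 0.38 in clones of 50 or more cells and 0.24 without Foxp3 or Cd4 UMIs; 1 cell held 26.3% of its UMIs. No paired analysis was possible because each treatment has 1 library and the labels give no replicate numbers. Genes seen in few cells have wide intervals, and a gene with few UMIs, such as Il2, could not be placed at this depth.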

Other observations

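The authors' own scores were set beside the division by Ifng in the 885 pairs with both cells in their receptor table. The exhaustion score averaged 0.0592 ± 0.163 (SD over cells) in positive and -0.00881 ± 0.185 in negative cells, a difference of 0.0681, and was higher in the positive cell of 541 pairs. The CXCR3 signature score averaged -0.0354 ± 0.0966 and 0.00728 ± 0.120, a difference of -0.0427, and was higher in the positive cell of 344 pairs. The activation score hardly differed, at -0.185 and -0.192. The sources used here do not describe how these scores were made.

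By the authors' cell cycle calls, 53.4% (50.1 to 56.8) of the positive and 46.8% (43.5 to 50.1) of the negative cells of these pairs were in S phase, 31.5% (28.5 to 34.7) and 36.6% (33.4 to 39.9) in G2/M, and 15% and 16.6% in G1. The authors' S phase score averaged 0.238 in positive and 0.267 in negative cells, with medians of 0.160 and 0.126. Their G2/M score averaged 0.129 and 0.182. Such calls read depth and free RNA too, although these pairs were matched on depth. Cells with a Mki67 UMI were Ifng-positive in 46.6% (40.5 to 52.8) of 266 cases, beside 45.4% of the whole cluster. Those cells were deeper, with a median of 8546.5 UMIs against 6117.5. At 3000 UMIs per cell the shares were 28.6% (23.2 to 34.4) and 31.3%.

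CD4 T cells of the IL-12 library were Ifng-positive in 21.3% (18.8 to 24.0) of 998 cells, at a median of 2589.5 UMIs, which is less than the depth of cluster 5.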
